A study of Rattus norvegicus with 24 samples.

Results

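Collagen chain genes are the protein-coding genes whose symbol is Col, a type number, the letter a and a chain number. The gene count table held 43 of them among 34523 genes. By chain type, 11 encode fibrillar collagens (types I, II, III, V, XI, XXIV and XXVII), 5 encode the type IV network of basement membranes, and 27 encode other collagens. A further row with such a name, Col6a3, is annotated as a processed transcript and was left out (highest level 0.449 CPM, the count scaled to the library total). Col23a1 has 2 rows, and both had 0 counts.

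The libraries came from a rat cell line labelled as lung microvascular endothelial cells (PMVEC). Cells were knocked out for Pfkfb3 (KO) or wild type (WT), and Pfkfb3 encodes a bifunctional enzyme that sets the level of an activator of glycolysis. Each genotype was kept for 24 h with 25 mM fructose or 25 mM glucose, in hypoxia or normoxia, which gave 8 groups of 3 libraries. The groups were KO hypoxia fructose, KO hypoxia glucose, KO normoxia fructose and KO normoxia glucose, and the same 4 media for WT. The labels give neither the altered part of Pfkfb3, the clone nor the oxygen level, and no group had both sugars or neither, so a response to fructose cannot be told apart from one to the absence of glucose. The labels do not say that the numbered libraries were separate cultures, so p-values measure the spread between these libraries, which may be technical. Pfkfb3 itself lay at 31.9 to 62.8 CPM in KO libraries and 56.7 to 158.7 CPM in WT libraries, without overlap in any medium.

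Library totals lay between 14344010 and 23028807 counts. The endothelial label was checked against 15 marker genes matched in the table. Cdh5 and Kdr, which define endothelium, stayed at or under 0.527 CPM in every library, Esam at or under 0.103 CPM, and Cldn5, Emcn and Robo4 had 0 counts. Other markers were expressed, and in their highest library Flt1 reached 211, Vwf 66.0, Icam2 52.2, Egfl7 24.0 and Tek 11.4 CPM. Eng, Nos3, Tie1 and Erg reached 6.20, 4.35, 4.13 and 1.02 CPM. The summed level of the 15 markers was 243 to 336 CPM in KO and 60.9 to 129.6 CPM in WT libraries, and 6 of the 15 were under 1 CPM everywhere. Of 10 fibroblast markers that are not collagens, 9 were under 1 CPM in every library, among them Pdgfra and Dcn, and Lum and Thy1 had 0 counts. The 4 mesothelial markers Wt1, Msln, Upk3b and Upk1b summed to 1108 to 1489 CPM in KO and 1531 to 2402 CPM in WT libraries, and each was lower in KO in all 4 media (edgeR, adjusted p under 0.05). The 9 smooth muscle and pericyte markers summed to 171 to 298 CPM in KO and 98.5 to 340.1 CPM in WT libraries, and the 6 leukocyte markers to 2.91 to 19.5 CPM in KO and 2.36 to 5.11 CPM in WT. The part of these differences in the collagen results was not tested.

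Collagens are secreted proteins in which a trio of chains winds into a triple helix, so genes whose chains share a helix must be expressed together. Fibrillar collagens pack into the cross-linked fibres that give tissue its tensile strength, and type IV collagen forms the sheet-like network under endothelium and epithelium. The remaining types link fibres to each other, form beaded filaments or hexagonal nets, or span the plasma membrane. In a vessel wall, fibroblasts and mural cells make most fibrillar collagen, and endothelial cells are known for types IV, VIII, XV and XVIII.

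Of the 43 genes, 26 passed the filter on low counts and were tested, as did 14770 of the 34523 genes in the table. They were 8 of 11 fibrillar, 5 of 5 type IV and 13 of 27 other genes. On the TPM scale, which also corrects for gene length, Col1a1 averaged 2102 TPM over the 24 libraries. It was followed by Col1a2 at 405, Col5a2 at 339, Col5a1 at 152, Col4a5 at 94.5, Col4a1 at 89.3 and Col4a2 at 70.9 TPM. Col1a1 and Col1a2 encode both chains of type I collagen, the main fibre protein of connective tissue. The leading other members were Col12a1 at 57.7, Col18a1 at 55.3 and Col16a1 at 54.3 TPM. All remaining genes averaged at most 21.4 TPM, and Col3a1, which encodes the partner fibre protein of type I in vessel walls, averaged 7.26 TPM.

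The 17 genes that did not pass the filter reached at most 0.674 CPM, which was Col9a3 of cartilage type IX. Col9a2, Col19a1 and Col2a1 peaked at 0.6, 0.323 and 0.328 CPM. Col28a1, Col26a1 and Col22a1 peaked at 0.163, 0.117 and 0.112 CPM, from 7, 7 and 4 counts over 24 libraries. Col6a5, Col9a1, Col6a4, Col24a1, Col15a1 and Col13a1 had 4 or fewer counts in all. Col15a1 is the other multiplexin beside Col18a1, the collagens of vessel basement membranes that carry an angiogenesis-inhibiting fragment at their end, and it had 1 count. Col11a1, Col25a1 and both Col23a1 rows had 0 counts, which over all libraries allows up to 0.0068 CPM at 3 counts, for counting error only.

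**Figure D1:**
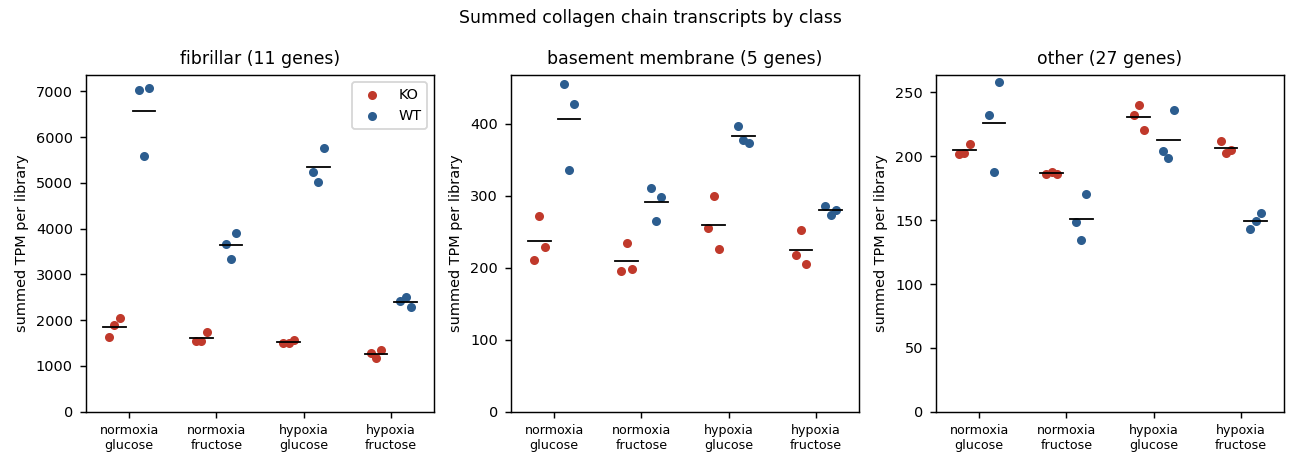
Summed TPM of the fibrillar, basement membrane and other collagen chain genes in each library, in 4 media, with KO (red) left of WT (blue). Points are libraries (3 per group) and black lines are group means. The fibrillar sum stays between 1175 and 2047 TPM in KO and spans 2290 to 7071 TPM in WT, while the other class lies at 186 to 240.4 TPM in KO and 134.8 to 257.9 TPM in WT.

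The knockout libraries held less collagen transcript, and the loss lay mostly in the fibrillar class. Over all 43 genes, the share of counts was 0.698 ± 0.0615% in KO and 2.12 ± 0.247% in WT in normoxic glucose (mean ± SD, n = 3 each). It was 0.603 ± 0.0271% in KO and 1.22 ± 0.0977% in WT in normoxic fructose, 0.627 ± 0.00715% and 1.76 ± 0.0828% for KO and WT in hypoxic glucose, and 0.523 ± 0.0094% and 0.863 ± 0.0186% for KO and WT in hypoxic fructose. These are bulk libraries, so fewer cells that express a gene and less RNA per cell cannot be told apart.

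Fibrillar genes summed to 1857 ± 205 TPM in KO and 6559.7 ± 844 TPM in WT in normoxic glucose, and to 1267 ± 84.1 TPM in KO and 2403 ± 106 TPM in WT in hypoxic fructose. The 2 media between these gave 1615 ± 115 against 3634 ± 292 TPM (normoxic fructose, KO against WT) and 1522 ± 39.8 against 5336 ± 383 TPM (hypoxic glucose, KO against WT). KO and WT libraries did not overlap in any medium, and the WT sum was 3.53, 2.25, 3.51 and 1.90 times the KO sum in normoxic glucose, normoxic fructose, hypoxic glucose and hypoxic fructose. Most of this was 1 gene. Without Col1a1, the sum over the other 42 genes in KO was 0.604, 0.764, 0.645 and 0.868 of that in WT in the same order of media, against 0.320, 0.493, 0.339 and 0.600 with it.

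The type IV sum was lower in KO without overlap in each medium, at 237 ± 31.1 TPM in KO and 406 ± 62.3 TPM in WT in normoxic glucose and 225 ± 24.3 TPM in KO and 279.9 ± 6.06 TPM in WT in hypoxic fructose. With types VII, XV and XVIII counted as basement membrane, the genotypes overlapped in that class in both fructose media. The other class differed between genotypes in a direction that depended on the unit and the class boundary. Its TPM sum overlapped between genotypes in both glucose media, and in fructose it was higher in KO, at 187 ± 0.885 TPM in KO and 151 ± 17.8 TPM in WT in normoxia and 206 ± 4.88 TPM in KO and 149 ± 6.5 TPM in WT in hypoxia. As a share of counts it was higher in KO without overlap in glucose too, at 0.0757% in KO and 0.0693% in WT in normoxia and 0.0909% and 0.0680% in hypoxia. With types VII, XV and XVIII counted as basement membrane, the other class was 104.1 TPM in KO and 117.9 TPM in WT in normoxic fructose and 141.7 TPM in KO and 129.6 TPM in WT in hypoxic fructose, with overlap in both. In normoxic glucose it was then lower in KO without overlap, at 123.1 TPM in KO and 183.2 TPM in WT. In hypoxic glucose it was 150.9 TPM in KO and 173.1 TPM in WT, with overlap. As a share of counts it was then 0.0435% in KO and 0.0393% in WT in normoxic fructose, with overlap, and 0.0647% in KO and 0.0528% in WT in hypoxic fructose, without it. The fibrillar share of collagen TPM was 80.7, 80.3, 75.6 and 74.6% in KO and 91.2, 89.2, 89.9 and 84.8% in WT in the 4 media. The sums were not tested.

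Gene by gene, 15 of the 26 tested genes were lower and 6 higher in KO than in WT in normoxic glucose (edgeR quasi-likelihood test, Benjamini-Hochberg adjusted over 14770 genes, threshold 0.05). Of all genes tested there, 23.7% were lower and 22.7% higher. In normoxic fructose 12 were lower and 8 higher, against 28% and 25.7% of all genes. In hypoxic glucose 14 were lower and 6 higher, against 24.1% and 24.3% of all genes, and in hypoxic fructose 12 were lower and 8 higher, against 28.8% and 25.7%. The median log2 change of the 26 genes was -0.75, -0.60, -0.70 and -0.56 in these media, and that of all genes tested was 0.02, -0.03, 0.01 and -0.03. A gene can enter the 26 through a high level in 1 genotype alone, so these counts describe the genes that passed the filter. Lower in all 4 media were 10 genes (Col1a1, Col3a1, Col5a2, Col11a2, Col4a1, Col4a2, Col4a4, Col6a2, Col8a1 and Col14a1), where 13.4% of all genes were. Higher in all 4 were 4 genes (Col12a1, Col17a1, Col18a1 and Col27a1), where 10.4% of all genes were.

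**Figure D2:**
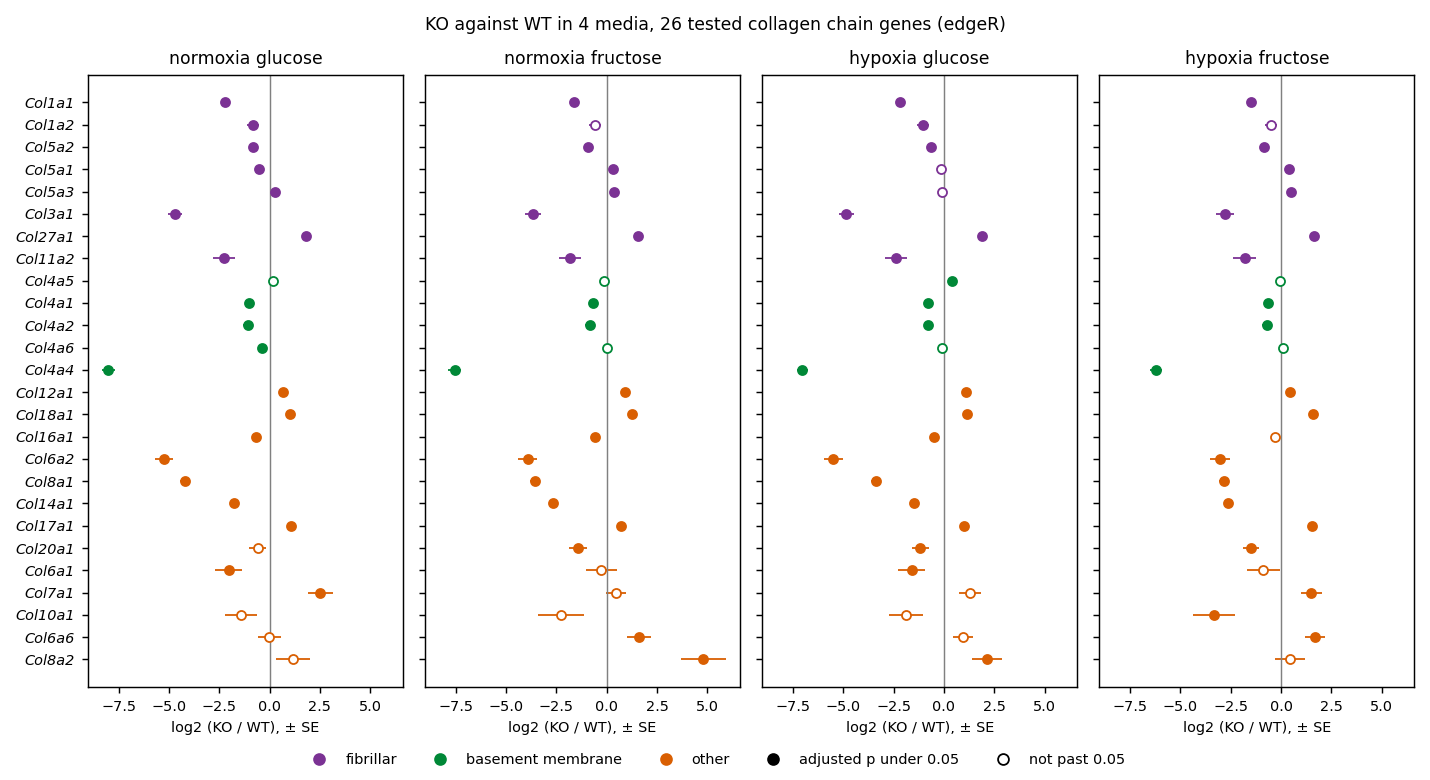
Log2 change of KO against WT with its standard error for the 26 tested genes, 1 panel per medium, coloured by class. Filled points passed an adjusted p of 0.05 in edgeR and open points did not. Col4a4 lies farthest left in every medium, and Col27a1, Col18a1, Col17a1 and Col12a1 lie right of 0 in all 4.

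Type I collagen was the largest single contributor. Col1a1 (chr10:82745801-82762789, plus strand, Rnor_6.0) encodes the major chain of the type I helix. In normoxic glucose it had 3122, 3358 and 3548 CPM in KO and 15532, 13421 and 17801 CPM in WT libraries, and in normoxic fructose 2633, 2781 and 2879 CPM in KO and 7984, 7251 and 9104 CPM in WT. In hypoxic glucose it had 2522, 2624 and 2731 CPM in KO and 12482, 11845 and 13110.2 CPM in WT, and in hypoxic fructose 2015, 1777 and 2012 CPM in KO and 5081, 5172 and 4762 CPM in WT. Every KO library lay below every WT library of any medium. The log2 change of KO against WT was -2.21, -1.61, -2.18 and -1.49 in normoxic glucose, normoxic fructose, hypoxic glucose and hypoxic fructose (SE 0.09 each, highest adjusted p 1.01e-12), the order of media used below.

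Its partner Col1a2 (chr4:31534225-31569151, plus strand) was less regular. It had 561, 911 and 1141 CPM in KO and 2302, 1423 and 868 CPM in WT in normoxic glucose, where the groups overlapped, and 584, 536 and 682 CPM in KO and 1117, 1281 and 1495 CPM in WT in hypoxic glucose, where they did not. In normoxic fructose Col1a2 had 846, 626 and 1057 CPM in KO and 1362, 1282 and 995 CPM in WT, with overlap, and in hypoxic fructose 561, 585 and 637 CPM in KO and 765, 816 and 734 CPM in WT, without it. The log2 changes were -0.81, -0.59, -1.04 and -0.50 with adjusted p of 0.0294, 0.0971, 0.00685 and 0.161 (edgeR). The call in normoxic glucose ended without WT library 1, KO library 1 or KO library 2 (highest adjusted p 0.265), in a fit of only the groups compared (0.234), and when the change of neighbouring genes was subtracted (0.0714, edgeR).

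Col3a1 (chr9:52023295-52059217, plus strand) encodes type III collagen, which forms thin fibres with type I in distensible tissue. It had 1.64, 3.35 and 3.05 CPM in KO and 57.2, 56.7 and 98.9 CPM in WT in normoxic glucose, and 0.841, 0.434 and 0.802 CPM in KO and 3.75, 3.39 and 5.87 CPM in WT in hypoxic fructose. In normoxic fructose Col3a1 had 1.15, 0.747 and 0.884 CPM in KO and 7.48, 8.77 and 17.9 CPM in WT, and in hypoxic glucose 1.39, 1.4 and 2.42 CPM in KO and 45.6, 46.4 and 64.4 CPM in WT. No KO library reached the lowest WT library of the same medium, and the WT level itself differed widely between media. The log2 changes were -4.71, -3.65, -4.85 and -2.80 (SE 0.36, 0.40, 0.36 and 0.44, highest adjusted p 2.4e-05, edgeR).

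Type V collagen co-assembles with type I and limits fibre width. Its 3 chains did not move alike. Col5a2 (chr9:52092511-52238564, minus strand) was lower in KO in all 4 media, at 602, 649.5 and 714 CPM in KO and 1220.4, 1007 and 1254 CPM in WT in normoxic glucose and 521, 493 and 563 CPM in KO and 967, 902 and 996 CPM in WT in normoxic fructose. In hypoxic glucose Col5a2 had 687, 639 and 647 CPM in KO and 1067, 1013 and 1115 CPM in WT, and in hypoxic fructose 548, 499 and 582 CPM in KO and 921, 898 and 929 CPM in WT. The genotypes were apart in each medium, with log2 changes of -0.81, -0.92, -0.63 and -0.87 (SE 0.08 each, highest adjusted p 5.49e-07, edgeR). Col5a1 (chr3:6430201-6578882, plus strand) had 501, 495 and 524 CPM in KO and 799.8, 660.1 and 752 CPM in WT in normoxic glucose, but 476, 501 and 461 CPM in KO and 379, 338 and 414 CPM in WT in normoxic fructose. The order of the genotypes thus turned with the sugar without overlap in either medium. In hypoxia Col5a1 had 596, 562 and 518 CPM in KO and 655, 667 and 650.1 CPM in WT with glucose, and 548, 541 and 498 CPM in KO and 358, 356 and 384 CPM in WT with fructose. Its log2 changes were -0.53, 0.29, -0.17 and 0.41, with adjusted p of 8.19e-06, 0.00395, 0.0915 and 0.000121 (edgeR). Col5a3 was higher in KO in normoxic glucose, normoxic fructose and hypoxic fructose, with log2 values of 0.28, 0.35, -0.12 and 0.49 in the 4 media and adjusted p of 0.0247, 0.00402, 0.327 and 0.000167 (edgeR). Its call in normoxic glucose ended without WT library 3 or KO library 3 (highest adjusted p 0.128) and relative to neighbouring genes (log2 0.04, adjusted p 0.784).

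At the low end, Col11a2, a chain of the cartilage fibre type XI, lay at 0.0587 to 0.871 CPM in KO and 0.697 to 2.62 CPM in WT. It was lower in all 4 media, by log2 values of -2.26, -1.85, -2.37 and -1.82, and the call in hypoxic fructose ended without KO library 3 (adjusted p 0.0545, edgeR). The 6 chondrocyte markers other than collagens, mostly Sox9, summed to 0 to 0.287 CPM in KO and 3.05 to 11.5 CPM in WT libraries, and their part in this was not tested. Col27a1 (chr5:79055521-79170765, plus strand), a fibrillar collagen of cartilage and developing tissue, was the only one of the 8 tested fibrillar genes that was higher in KO in all 4 media. It had 16.4, 18.6 and 20.5 CPM in KO and 4.04, 6.97 and 5.19 CPM in WT in normoxic glucose and 18.3, 23.3 and 18.6 CPM in KO and 6.02, 4.6 and 9.13 CPM in WT in normoxic fructose. In hypoxic glucose Col27a1 had 20.4, 16.1 and 20.1 CPM in KO and 5.04, 5.84 and 5.06 CPM in WT, and in hypoxic fructose 22.5, 26.9 and 20.8 CPM in KO and 6.46, 6.47 and 7.62 CPM in WT. Every KO library lay above every WT library. The log2 changes were 1.79, 1.55, 1.89 and 1.66 (SE 0.20, 0.19, 0.20 and 0.19, highest adjusted p 3.13e-07, edgeR).

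**Figure D3:**
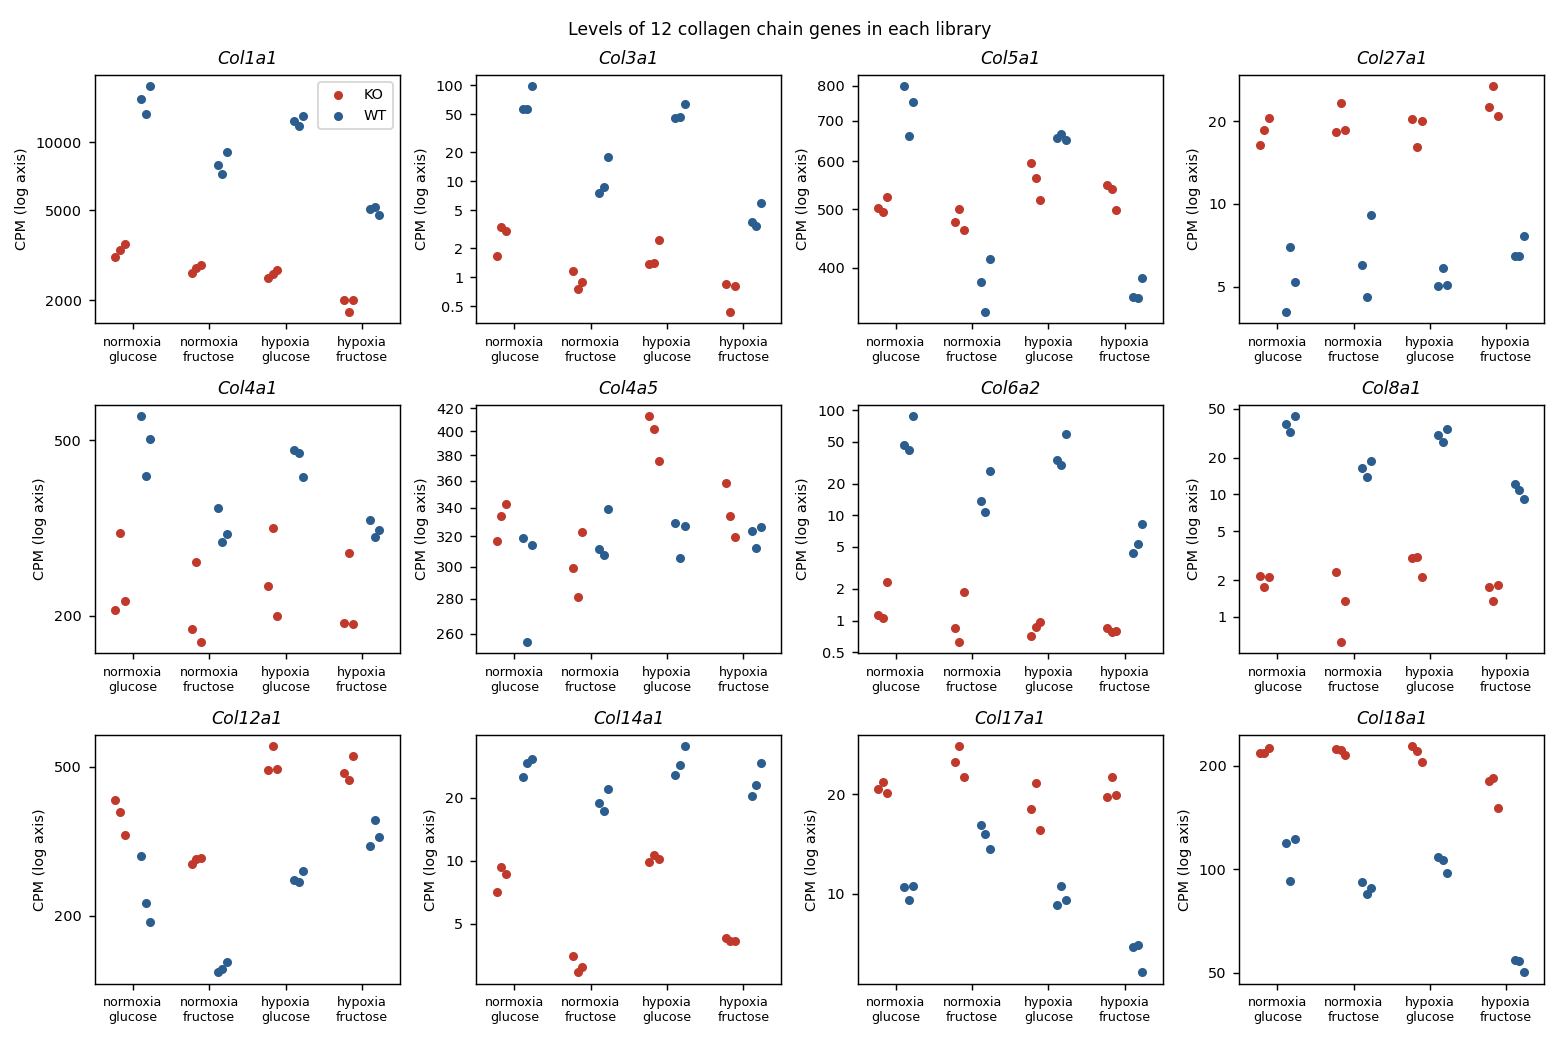
CPM of 12 collagen chain genes in each of the 24 libraries on log axes, KO (red) left of WT (blue), in 4 media. In Col1a1, Col3a1, Col6a2, Col8a1 and Col14a1 the KO points of each medium lie below the WT points of the same medium, and in Col12a1, Col17a1, Col18a1 and Col27a1 they lie above them.

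Type IV genes sit in head-to-head pairs that share a promoter region, and the pairs behaved differently. RefSeq promoter entries (rat build GRCr8, 250 bases before to 50 after each start) matched 33 of 42 member symbols. The bases before the starts of the type IV genes are shown because paired genes are read outward from them. The counted gene models are those of Rnor_6.0, where the starts of Col4a2 and Col4a1 and those of Col4a6 and Col4a5 lie farther apart. There Col4a2 spans chr16:83387364-83438561 (minus strand) and Col4a1 begins at 83522162. Col4a6 spans chrX:112405647-112473822 (minus strand) and Col4a5 begins at 112769645. Capitals mark the GC box GGGCGG and the hypoxia response core ACGTG on either strand. Col4a2 and Col4a1 start 76 bases apart in GRCr8, on opposite strands of chr16:84885521-84885596, and that whole interval reads on the plus strand, toward Col4a1, as follows.
Col4a2 to Col4a1: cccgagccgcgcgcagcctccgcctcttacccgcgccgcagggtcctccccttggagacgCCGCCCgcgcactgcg
The 120 bases before the start of Col4a4 (chr9:91323578-91323697, minus strand) hold none of the motifs searched. Its partner Col4a3 starts 412 bases away and is not analysed here.
Col4a4: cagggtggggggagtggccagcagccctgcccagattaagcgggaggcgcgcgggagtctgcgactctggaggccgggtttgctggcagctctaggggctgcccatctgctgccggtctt
Col4a6 and Col4a5 start 1414 bases apart on the X chromosome. The 120 bases before each are from chrX:109907239-109907358 (plus strand) for Col4a5 and chrX:109905945-109906064 (minus strand) for Col4a6.
Col4a5: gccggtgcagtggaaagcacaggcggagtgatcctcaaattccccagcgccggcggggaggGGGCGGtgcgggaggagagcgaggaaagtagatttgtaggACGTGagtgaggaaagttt
Col4a6: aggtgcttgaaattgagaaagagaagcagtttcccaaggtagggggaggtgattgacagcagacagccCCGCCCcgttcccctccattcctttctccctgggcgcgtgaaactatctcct
Across the 250 bases before the start, GGGCGG on either strand was found in 15 of the 21 tested members with an entry and in 60.5% of tested genes with an entry (33.5% of all entries). CCAAT on either strand was found in 7 of the 21 and in 37.2% of tested genes (36.1% of all entries). TATAAA was found in 3 of 21 and in 6.8% of tested genes (14.1% of all entries), and ACGTG in 1 of 21, Col4a5, and in 23.5% of tested genes (18.1% of all entries). A match in these letters is a description of the sequence and not a binding site.

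The pair with 76 bases between its GRCr8 starts moved together. Col4a1 (chr16:83522162-83632153, plus strand, Rnor_6.0) and Col4a2 encode the chains of the type IV network found in nearly every basement membrane. Col4a1 had 207, 308 and 217 CPM in KO and 568, 416 and 503 CPM in WT in normoxic glucose and 186, 265 and 174 CPM in KO and 352, 295 and 307 CPM in WT in normoxic fructose. In hypoxic glucose it had 233, 316 and 199 CPM in KO and 477, 469 and 413 CPM in WT, and in hypoxic fructose 193, 278 and 192 CPM in KO and 330.2, 302 and 314 CPM in WT. Col4a2 had 115, 178 and 122 CPM in KO and 325, 254 and 309 CPM in WT in normoxic glucose. KO libraries lay below WT libraries in each medium, and KO library 2 was the highest KO library of both genes in all 4 media. Log2 changes were -1.01, -0.67, -0.79 and -0.63 for Col4a1 and -1.08, -0.84, -0.77 and -0.72 for Col4a2, all past the threshold (highest adjusted p 0.0169, edgeR).

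Genes around this pair on chromosome 16 were lower in KO as well. The up to 50 nearest tested genes that are not collagens, here 35 around Col4a1 and 36 around Col4a2 because the chromosome ends nearby, had a median log2 change of -0.58, -0.57, -0.70 and -0.60 around Col4a1 in the 4 media. Relative to these neighbours all 8 calls ended, with log2 values of -0.42, -0.10, -0.09 and -0.03 for Col4a1 (adjusted p 0.132, 0.727, 0.783 and 0.918) and -0.48, -0.28, -0.09 and -0.13 for Col4a2 (adjusted p 0.133, 0.369, 0.812 and 0.694). The neighbours of Col4a1 were also highest in KO library 2 in all 4 media, but by less than Col4a1 itself. Their median log2 ratio to the WT mean in normoxic glucose was -0.55, -0.50 and -0.58 in KO libraries 1, 2 and 3, against -1.26, -0.69 and -1.19 for Col4a1. Leaving out 1 library ended the call of Col4a1 in normoxic fructose (WT library 1, KO library 1 or KO library 3, highest adjusted p 0.0644) and in hypoxic fructose (KO library 1 or 3, 0.0752). It ended that of Col4a2 in hypoxic glucose (KO library 3, 0.0684) and hypoxic fructose (KO library 1 or 3, 0.0831).

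Col4a4 (chr9:88232455-88357182, minus strand) had the largest genotype difference of the 26 genes. It encodes a chain of the mature network of kidney, lung and ear, which it builds with the products of Col4a3 and Col4a5. It had 0.47, 0.349 and 0.926 CPM in KO and 165, 131 and 179 CPM in WT in normoxic glucose, and 0.425, 0 and 0.884 CPM in KO and 82.3, 73.1 and 98.7 CPM in WT in normoxic fructose. In hypoxic glucose it had 0.91, 1.11 and 1.45 CPM in KO and 155, 136 and 183 CPM in WT, and in hypoxic fructose 1.14, 0.738 and 1.15 CPM in KO and 63.9, 57.2 and 81.8 CPM in WT. It was near 0 in every KO library and at or above 57.2 CPM in every WT library. The log2 changes were -8.01, -7.55, -7.03 and -6.21 (SE 0.31, 0.33, 0.28 and 0.29, highest adjusted p 9.26e-13, edgeR), and the call in each medium held without any 1 library and relative to neighbouring genes.

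The X-linked pair had smaller log2 values. Col4a5 (chrX:112769645-112983685, plus strand) had 317, 334 and 342 CPM in KO and 319, 255 and 314 CPM in WT in normoxic glucose and 413, 402 and 375 CPM in KO and 329, 306 and 327 CPM in WT in hypoxic glucose. In normoxic fructose Col4a5 had 299, 281 and 323 CPM in KO and 312, 307 and 339 CPM in WT, and in hypoxic fructose 359, 334 and 319 CPM in KO and 324, 312 and 326 CPM in WT. Only the hypoxic glucose groups were apart, and its log2 values were 0.17, -0.14, 0.38 and -0.05 with adjusted p of 0.0755, 0.132, 0.000361 and 0.659 (edgeR). Col4a6, its partner in smooth muscle and epithelial basement membranes, was lower in KO in normoxic glucose alone, with overlapping groups and log2 values of -0.38, 0.03, -0.10 and 0.09 in the 4 media. That call (adjusted p 0.0131) ended without WT library 1, WT library 3 or KO library 1 (highest adjusted p 0.0983) and in a fit of only the groups compared (0.0631, edgeR).

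Among the other collagens, 3 were higher in KO in all 4 media. Col18a1 (chr20:12225202-12332858, plus strand) encodes the vessel basement membrane collagen from whose end endostatin is cut. It had 217, 218 and 225 CPM in KO and 119.5, 92.5 and 123 CPM in WT in normoxic glucose and 225, 222 and 216 CPM in KO and 92.1, 84.5 and 88 CPM in WT in normoxic fructose. In hypoxic glucose Col18a1 had 228, 221 and 205 CPM in KO and 109, 107 and 97.5 CPM in WT, and in hypoxic fructose 181, 185 and 151 CPM in KO and 54.5, 53.9 and 50.1 CPM in WT. All KO libraries were above all WT libraries, with log2 changes of 0.995, 1.26, 1.13 and 1.59 (SE 0.09 to 0.10, highest adjusted p 5.01e-09, edgeR).

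Col17a1 (chr1:267417459-267463705, minus strand) encodes a transmembrane collagen of epithelial hemidesmosomes. It had 20.7, 21.8 and 20.2 CPM in KO and 10.5, 9.55 and 10.5 CPM in WT in normoxic glucose and 25.1, 28 and 22.6 CPM in KO and 16.1, 15.1 and 13.6 CPM in WT in normoxic fructose. In hypoxic glucose Col17a1 had 18, 21.7 and 15.6 CPM in KO and 9.25, 10.5 and 9.55 CPM in WT, and in hypoxic fructose 19.6, 22.6 and 19.9 CPM in KO and 6.9, 6.97 and 5.77 CPM in WT. The genotypes did not overlap in any medium, and the log2 changes were 1.05, 0.69, 0.98 and 1.54 (highest adjusted p 8.57e-05, edgeR). The summed level of 7 epithelial markers, mostly Krt8, was also higher in KO, at 1620 to 2864 CPM in KO and 669 to 1176 CPM in WT libraries, and their part in this difference was not tested.

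Col12a1 (chr8:87040799-87158368, minus strand) encodes a collagen that coats fibrils and links them to other matrix. It had 406, 379 and 329 CPM in KO and 289, 217 and 192 CPM in WT in normoxic glucose and 275, 283 and 285 CPM in KO and 141, 145 and 151 CPM in WT in normoxic fructose. In hypoxic glucose Col12a1 had 490.0, 567 and 492 CPM in KO and 249, 246 and 264 CPM in WT, and in hypoxic fructose 482, 460.2 and 533 CPM in KO and 306, 359.9 and 325 CPM in WT. It was higher in KO without overlap in each medium, by log2 values of 0.69, 0.89, 1.10 and 0.45 (highest adjusted p 0.00158, edgeR).

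Other members of the class were close to absent in KO. Col6a2 (chr20:12773427-12801180, plus strand) encodes a chain of the beaded filaments of type VI collagen. It had 1.12, 1.05 and 2.34 CPM in KO and 46.9, 41.9 and 87.6 CPM in WT in normoxic glucose and 0.85, 0.623 and 1.87 CPM in KO and 13.7, 10.7 and 26.3 CPM in WT in normoxic fructose. In hypoxic glucose Col6a2 had 0.718, 0.871 and 0.97 CPM in KO and 33.7, 29.8 and 58.8 CPM in WT, and in hypoxic fructose 0.841, 0.782 and 0.802 CPM in KO and 4.4, 5.38 and 8.34 CPM in WT. WT library 3 was the highest of its group in all 4 media, and the genotypes did not overlap. The log2 changes were -5.25, -3.93, -5.50 and -3.01 (SE 0.46, 0.46, 0.48 and 0.49, highest adjusted p 4.67e-05, edgeR). Its obligate partner Col6a1 reached at most 2.95 CPM, and Col6a3, Col6a4 and Col6a5 at most 0.449 CPM.

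Col8a1 (chr11:44877859-45007891, plus strand) encodes a chain of the hexagonal nets known from vessel intima and the cornea. It had 2.17, 1.74 and 2.12 CPM in KO and 37.4, 32.2 and 43.6 CPM in WT in normoxic glucose and 2.31, 0.623 and 1.35 CPM in KO and 16.4, 13.9 and 18.9 CPM in WT in normoxic fructose. In hypoxic glucose Col8a1 had 3.02, 3.1 and 2.1 CPM in KO and 30.3, 27 and 34.1 CPM in WT, and in hypoxic fructose 1.74, 1.35 and 1.83 CPM in KO and 12.1, 11 and 9.17 CPM in WT. The genotypes were far apart in each medium, with log2 changes of -4.20, -3.57, -3.40 and -2.84 (highest adjusted p 1.06e-09, edgeR). Its partner Col8a2 never exceeded 0.871 CPM. Col8a2 was higher in KO in normoxic fructose, from 38 counts in KO and 1 count in WT over 3 libraries each, a ratio of 38.7 with a 95% exact counting interval of 6.53 to 1567.2. It was also higher in KO in hypoxic glucose (log2 2.14, adjusted p 0.0226, edgeR), a call that ended without WT library 1, WT library 2 or KO library 2 (highest adjusted p 0.0999).

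Col14a1 (chr7:95074236-95273298, plus strand) belongs like Col12a1 to the collagens that coat fibrils, and its genotype difference had the opposite sign. It had 7.05, 9.27 and 8.66 CPM in KO and 25.1, 29.2 and 30.7 CPM in WT in normoxic glucose and 3.52, 2.93 and 3.12 CPM in KO and 18.9, 17.3 and 22 CPM in WT in normoxic fructose. In hypoxic glucose Col14a1 had 9.86, 10.7 and 10.2 CPM in KO and 25.7, 28.6 and 35.1 CPM in WT, and in hypoxic fructose 4.26, 4.13 and 4.12 CPM in KO and 20.4, 23 and 29.2 CPM in WT. The log2 changes were -1.75, -2.66, -1.47 and -2.65 (SE 0.14 to 0.15, highest adjusted p 3.43e-09, edgeR). Col16a1, a further fibril-associated collagen, had 106, 116 and 156 CPM in KO and 201, 168 and 245 CPM in WT in normoxic glucose and 133, 124 and 108 CPM in KO and 136, 121 and 158 CPM in WT in hypoxic fructose. In normoxic fructose Col16a1 had 121, 111 and 124 CPM in KO and 167, 150.4 and 204 CPM in WT, and in hypoxic glucose 142, 127 and 134 CPM in KO and 193, 193 and 209.6 CPM in WT. It was lower in KO in 3 media and missed the threshold in hypoxic fructose, where the groups overlapped, with log2 values of -0.69, -0.60, -0.49 and -0.30 and adjusted p of 0.000201, 0.000601, 0.00384 and 0.0584 (edgeR).

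The 5 remaining tested members reached at most 14.5 CPM. Col20a1, a fibril-associated collagen, lay at 1.30 to 6.57 CPM in KO and 3.07 to 14.5 CPM in WT and was lower in KO in normoxic fructose, hypoxic glucose and hypoxic fructose (log2 -1.45, -1.18 and -1.50). The first of these calls ended without KO library 3 (adjusted p 0.0519) and the second without WT library 3, KO library 1 or KO library 2 (highest adjusted p 0.137), and both ended relative to neighbouring genes (adjusted p 0.0749 and 0.169, edgeR). Col6a1 was lower in KO in both glucose media (log2 -2.04 and -1.61). In normoxia that call ended without WT library 3 or KO library 3 (highest adjusted p 0.0582), and in hypoxia without any of 9 libraries (highest adjusted p 0.249, edgeR).

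Col7a1, the anchoring fibril collagen of skin, had 1.35, 1.46 and 1.36 CPM in KO and 0.269, 0.449 and 0 CPM in WT in normoxic glucose and was higher in KO there (log2 2.52, adjusted p 0.00168, edgeR). It was also higher in KO in hypoxic fructose (log2 1.50, adjusted p 0.0151), a call that ended without WT library 3 or KO library 1 (highest adjusted p 0.0703). Col6a6, of the type VI family, was higher in KO in both fructose media (log2 1.60 and 1.68). Its normoxic call ended without WT library 2, KO library 2 or KO library 3 (highest adjusted p 0.118) and relative to neighbouring genes (0.0833, edgeR). Col10a1, the collagen of hypertrophic cartilage, reached at most 0.730 CPM and was lower in KO in hypoxic fructose, with 2 counts in KO and 22 in WT, a ratio of 0.0921 (95% exact counting interval 0.0105 to 0.375). That call ended without WT library 3 (adjusted p 0.0829, edgeR).

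**Figure D4:**
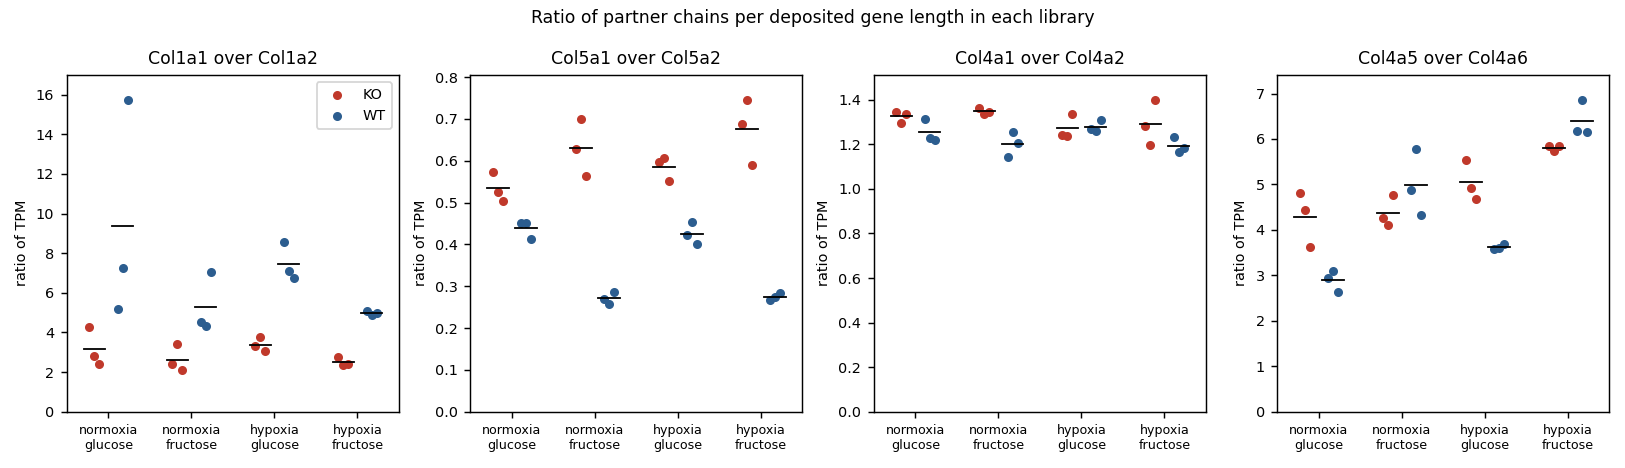
Ratio of the TPM of partner chains in each library, KO (red) left of WT (blue), in 4 media, with group means as black lines. The Col4a1 to Col4a2 ratio stays between 1.14 and 1.40 in all 24 libraries, while the Col1a1 to Col1a2 ratio lies lower in KO than in WT in every medium and the Col5a1 to Col5a2 ratio higher.

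Partner chains did not all keep their ratio. Per gene length, the Col4a1 to Col4a2 ratio of TPM was 1.33 ± 0.025 in KO and 1.25 ± 0.0514 in WT in normoxic glucose (mean ± SD, n = 3 each), and 1.14 to 1.40 over all 24 libraries. The Col1a1 to Col1a2 ratio was 4.28, 2.83 and 2.39 in KO and 5.18, 7.25 and 15.8 in WT libraries in normoxic glucose, and 2.76, 2.33 and 2.42 in KO and 5.1, 4.87 and 4.99 in WT in hypoxic fructose. KO and WT ratios did not overlap in any medium, and the wide WT range in normoxic glucose followed Col1a2 more than Col1a1. The Col5a1 to Col5a2 ratio went the other way, with 0.631 ± 0.0679 in KO and 0.271 ± 0.0142 in WT in normoxic fructose and 0.585 ± 0.0293 in KO and 0.426 ± 0.026 in WT in hypoxic glucose. The Col4a5 to Col4a6 ratio was 4.29 ± 0.607 in KO and 2.89 ± 0.23 in WT in normoxic glucose, but in normoxic fructose it was 4.37 ± 0.356 in KO and 5 ± 0.731 in WT, with overlap. Ratios were not tested, and reads per gene depend on the deposited gene length.

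Most sugar calls were in WT. With fructose against glucose, 13 of the 26 genes were lower and 2 higher in WT in normoxia, where 17.9% of all genes were lower and 19.9% higher, and 12 were lower and 2 higher in WT in hypoxia, against 20.9% and 24.6% (edgeR, adjusted p under 0.05). In KO, 2 were lower and 0 higher in normoxia, against 0.65% and 1.14% of all genes, and 5 were lower and 0 higher in hypoxia, against 2.73% and 2.69%. At an unadjusted p under 0.05, 1 and 2 genes were higher in KO in normoxia and hypoxia, and DESeq2 called 0 in both. None of the 26 passed in the same direction in all 4 sugar comparisons, where 0.474% of all genes were higher and 0.264% lower in all 4. The median log2 change of the 26 genes was -0.21 and -0.19 in KO normoxia and hypoxia and -0.53 and -0.34 in WT normoxia and hypoxia, and that of all genes tested was between 0.00 and 0.02.

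**Figure D5:**
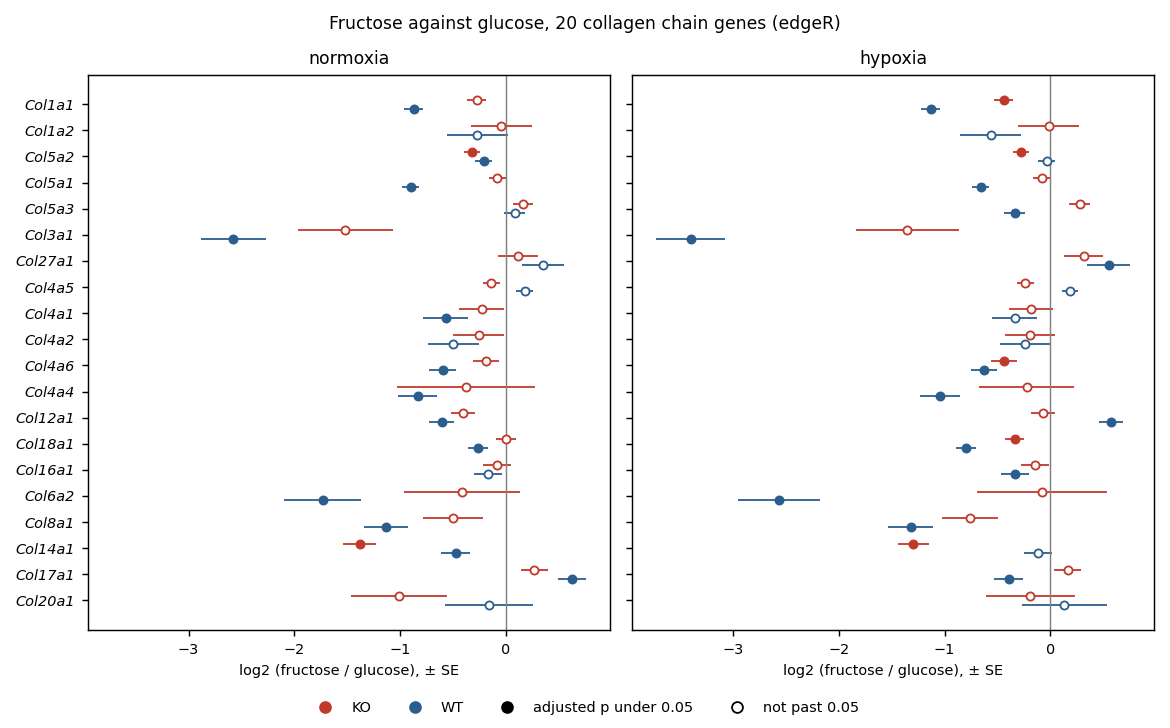
Log2 change of fructose against glucose with its standard error in KO (red, upper point) and WT (blue, lower point) for the 20 genes that average at least 1 TPM, in normoxia (left) and hypoxia (right). Filled points passed an adjusted p of 0.05 in edgeR. WT points of Col3a1, Col6a2, Col8a1 and Col1a1 lie at or left of -0.87 in both panels, and Col14a1 is the gene whose KO point lies left of its WT point by the most.

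Several genes that were lower in KO were also lower with fructose in WT. The same WT glucose libraries enter the WT sugar comparisons and KO against WT in glucose, so these comparisons are not independent. Col1a1 fell by 0.87 on the log2 scale in normoxia and by 1.13 in hypoxia in WT (SE 0.09, adjusted p 2.82e-08 and 2.27e-10), from the levels given above. In KO its change was -0.28 in normoxia (adjusted p 0.128) and -0.44 in hypoxia (adjusted p 0.00255, edgeR). Col3a1 had 7.48, 8.77 and 17.9 CPM with fructose and 57.2, 56.7 and 98.9 CPM with glucose in WT normoxia, and 3.75, 3.39 and 5.87 CPM with fructose and 45.6, 46.4 and 64.4 CPM with glucose in WT hypoxia. The groups were far apart, with log2 changes of -2.58 and -3.40 (adjusted p 1.7e-06 and 7.26e-08). In KO the values were -1.52 and -1.35, which missed the threshold (adjusted p 0.11 and 0.128, edgeR) at levels of 0.434 to 3.35 CPM. Col5a1 was lower with fructose in WT (log2 -0.90 and -0.66), and in KO it was -0.08 and -0.08 with overlapping groups.

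Several non-fibrillar genes were lower with fructose in WT as well. Col6a2 changed by -1.73 and -2.56 with fructose in WT normoxia and hypoxia, Col8a1 by -1.14 and -1.32, Col4a4 by -0.83 and -1.04, Col4a6 by -0.60 and -0.63, and Col6a1 by -2.38 and -1.92, all lower with fructose and past the threshold (edgeR). The hypoxic Col6a1 call ended without WT hypoxia glucose library 3 or WT hypoxia fructose library 2 or 3 (highest adjusted p 0.146) and in a fit of only the groups compared (0.0562, edgeR). The higher genes in WT normoxia were Col7a1 (log2 2.68, 79 counts with fructose and 13 with glucose) and Col17a1 (0.63). In WT hypoxia they were Col12a1 (0.57) and Col27a1 (0.55). The Col27a1 call ended without WT hypoxia glucose library 1 or 3 or WT hypoxia fructose library 3 (highest adjusted p 0.0947).

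Smaller changes in WT were less secure. In normoxia Col12a1 (-0.61) and Col14a1 (-0.48) fell with fructose. Col18a1 (-0.27), Col4a1 (-0.57) and Col5a2 (-0.21) also fell, but each of these 3 calls ended without WT normoxia glucose library 1 or 3 and without WT normoxia fructose library 2 or 3, and for Col5a2 also without WT normoxia fructose library 1 (highest adjusted p 0.150, 0.162 and 0.181, edgeR). A fit of only the groups compared ended the calls of Col18a1 and Col5a2 (adjusted p 0.0615 and 0.0990), and testing without the filter on low counts ended those of Col4a1 and Col5a2 (0.0741 and 0.0640, edgeR). In this comparison every same-numbered pair of libraries deviated together by the limit used (correlation over 0.1). With the replicate number as a block Col4a5 was also called (log2 0.18, adjusted p 0.0370, against 0.0815 without the block, edgeR). In hypoxia Col18a1 (-0.80) and Col5a3 (-0.34) fell with fructose. So did Col17a1 (-0.39), whose call ended without WT hypoxia glucose library 2 or WT hypoxia fructose library 3 or with only the groups compared (highest adjusted p 0.119), and Col16a1 (-0.33), whose call ended without any of 12 libraries or without the filter (highest adjusted p 0.189, edgeR).

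Among the genes called in KO, Col14a1 had the largest change in both oxygen conditions. It had 3.52, 2.93 and 3.12 CPM with fructose and 7.05, 9.27 and 8.66 CPM with glucose in KO normoxia, and 4.26, 4.13 and 4.12 CPM with fructose and 9.86, 10.7 and 10.2 CPM with glucose in KO hypoxia. The groups did not overlap, and the log2 changes were -1.38 and -1.29 (adjusted p 7.68e-06 and 2.01e-06), while in WT they were -0.48 and -0.11 (adjusted p 0.00592 and 0.512, edgeR). Col5a2 fell in KO by 0.32 in normoxia and by 0.28 in hypoxia. The first call ended without KO normoxia glucose library 2 or 3 or KO normoxia fructose library 1 or 2, and the second without any of 9 libraries or without the filter (highest adjusted p 0.177 and 0.176). Col1a1 (-0.44), Col4a6 (-0.44) and Col18a1 (-0.34) fell in KO hypoxia. The Col4a6 call ended without any of the 6 libraries compared (highest adjusted p 0.158), and the Col18a1 call without KO hypoxia glucose library 1 or 2 or KO hypoxia fructose library 3 or with only the groups compared (0.202, edgeR).

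These sugar effects differed between genotypes for several genes. In normoxia the difference, KO minus WT, passed for 4 of the 26 genes, where 19.1% of all genes passed, and in hypoxia for 10, where 25.6% did (edgeR interaction test). In normoxia it was 0.82 ± 0.11 for Col5a1 and 0.60 ± 0.12 for Col1a1 (log2 ± SE, adjusted p 1.46e-05 and 0.00123), and -0.91 ± 0.20 for Col14a1 (adjusted p 0.00228). In hypoxia it was 2.49 ± 0.73 for Col6a2 and 2.05 ± 0.62 for Col3a1 (adjusted p 0.0177 and 0.0193), and -1.18 ± 0.20 for Col14a1 and -0.64 ± 0.16 for Col12a1 (adjusted p 7.54e-05 and 0.00439, edgeR). For Col1a1, Col3a1, Col5a1 and Col6a2 the positive value means a smaller decrease with fructose in KO than in WT, and the negative value of Col14a1 means the reverse. Col6a2 and Col3a1 were near 0 in KO already with glucose, which leaves little room for a measured decrease. In KO hypoxia Col6a2 averaged 0.853 CPM with glucose and 0.808 CPM with fructose, and Col3a1 1.74 and 0.692 CPM. Of the fourth normoxic call, Col4a5 (-0.32, adjusted p 0.0483), the threshold was missed without any of 18 libraries, with only the groups compared, with DESeq2's size factors and without the filter (highest adjusted p 0.154). The Col3a1 call in hypoxia ended without KO hypoxia fructose library 1 or 3 (highest adjusted p 0.0731), and that of Col17a1 (0.56) without any of 5 libraries or without the filter (0.0999, edgeR). The comparisons that enter each difference share libraries with the genotype comparisons above.

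Oxygen calls numbered 1 to 3 of the 26 genes in 3 comparisons and 9 in WT fructose. With hypoxia against normoxia, 2 of the 26 genes were higher and 1 lower in KO glucose (7.96% and 6.07% of all genes), 1 higher and 2 lower in KO fructose (9.71% and 10.3%), 0 higher and 1 lower in WT glucose (3.39% and 1.42%), and 4 higher and 5 lower in WT fructose (11.3% and 9.91%, edgeR). For the 0 in WT glucose, 2 genes were higher at an unadjusted p under 0.05 and DESeq2 called 0. Col1a1 was the 1 gene lower in hypoxia in all 4 comparisons, as were 0.528% of all genes. Its log2 changes were -0.31, -0.47, -0.33 and -0.59 in KO glucose, KO fructose, WT glucose and WT fructose (adjusted p 0.0202, 0.000413, 0.0269 and 1.96e-05, edgeR), with hypoxic libraries below normoxic ones in each. The KO glucose call ended without KO normoxia glucose library 2 or 3 or KO hypoxia glucose library 1 (highest adjusted p 0.0880), and the WT glucose call without WT normoxia glucose library 1 or 3 or WT hypoxia glucose library 1 or 2 (0.151) and with only the groups compared (0.250, edgeR).

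Col12a1 went up in hypoxia in both KO media and in WT fructose. Its log2 changes were 0.51, 0.85, 0.11 and 1.29 in the same order, with adjusted p of 0.00308, 6.41e-06, 0.695 and 8.77e-09 (edgeR), and the call in each of the 3 held without any 1 library. In WT fructose it had 306, 359.9 and 325 CPM in hypoxia and 141, 145 and 151 CPM in normoxia, and in WT glucose 249, 246 and 264 CPM in hypoxia and 289, 217 and 192 CPM in normoxia, where the groups overlapped. WT fructose was the medium with the most oxygen calls. There Col17a1 fell by 1.09, Col18a1 by 0.64, Col3a1 by 1.28 and Col6a2 by 1.37 on the log2 scale beside Col1a1. The Col3a1 call ended without WT normoxia fructose library 3 (adjusted p 0.0647), and the Col6a2 call without that library or WT hypoxia fructose library 1 or 2 (highest adjusted p 0.102, edgeR). The higher genes beside Col12a1 were less secure. Col14a1 (log2 0.43) overlapped between groups, and its call ended without WT normoxia fructose library 1 or 2 or WT hypoxia fructose library 3 or with only the groups compared (highest adjusted p 0.194). Col20a1 (1.17) lost its call without any of 17 libraries, with DESeq2's size factors and without the filter (highest adjusted p 0.169), and Col8a2, with 16 counts in hypoxia and 1 in normoxia, without any of 5 (0.265, edgeR). In KO glucose Col4a5 was higher in hypoxia (0.30), a call that ended without KO normoxia glucose library 1 or KO hypoxia glucose library 1 (highest adjusted p 0.0648). In KO fructose Col18a1 fell by 0.31, and that call ended without KO normoxia fructose library 1 or 2 or KO hypoxia fructose library 3 (0.132, edgeR).

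The oxygen effect differed between genotypes with fructose for 1 gene, Col17a1 (KO minus WT 0.85 ± 0.19, log2 ± SE, adjusted p 0.0171), where 2.11% of all genes passed, and that call ended without WT hypoxia fructose library 3 (adjusted p 0.0538, edgeR). With glucose it passed for 0 genes, where 0.183% of all genes did, with 4 genes at an unadjusted p under 0.05 and 0 by DESeq2. The sugar effect differed between oxygen conditions for 0 genes in KO (0.00677% of all genes), with 2 genes at an unadjusted p under 0.05 and 0 by DESeq2. In WT it differed for 3 genes (3.27% of all genes), which were Col12a1 (1.18 ± 0.16), Col17a1 (-1.02 ± 0.19) and Col18a1 (-0.53 ± 0.13), given as the fructose effect in hypoxia minus that in normoxia (adjusted p 0.000125, 0.0031 and 0.0285, edgeR). In WT, Col17a1 was thus highest in normoxic fructose and lowest in hypoxic fructose, and Col12a1 was lowest in normoxic fructose. The Col18a1 call ended without any of 5 libraries (highest adjusted p 0.0789) and with only the groups compared (0.0903, edgeR).

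The genes that process collagen were mixed. Of 13 tested prolyl and lysyl hydroxylases and glycosyltransferases, which modify chains before they fold, 7, 5, 7 and 6 were higher and 4, 5, 3 and 6 lower in KO in the 4 media. P4hb, the shared subunit of the prolyl hydroxylase, was lower in all 4 (log2 -0.65, -1.24, -0.33 and -1.27, from means of 2038 CPM in KO and 3744 CPM in WT libraries), and P4ha3, a catalytic subunit, was higher in all 4 (0.55, 1.14, 0.45 and 1.20). P4ha2, another catalytic subunit, named here after its values were seen, averaged 0.0976 CPM in KO and 295.5 CPM in WT libraries. Of 4 tested procollagen proteinases and enhancers, 3, 3, 3 and 2 were lower, and 1 was higher in each medium except normoxic glucose. Pcolce, which speeds the trimming of fibrillar procollagens, was lower in all 4 (log2 -0.95, -0.95, -1.01 and -0.94). Adamts3, a proteinase that cuts the start of procollagen, had 0 counts in KO and averaged 3.41 CPM in WT.

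Of 5 cross-linking enzymes, 1, 2, 2 and 1 were higher and 2, 2, 2 and 2 lower in KO. Lox, the main enzyme of the group, was higher in 3 media (log2 0.67, 0.52 and 0.31 in normoxic fructose, hypoxic glucose and hypoxic fructose), and Loxl1 was lower in all 4 (-2.69, -2.23, -1.91 and -1.23). Of 8 chaperone and export genes, 3, 3, 4 and 3 were higher and 1, 2, 1 and 4 lower. Among 7 tested small proteoglycans and assembly proteins 2 were higher in each medium and 3, 3, 2 and 3 lower, with Fmod, which binds type I fibres, lower in all 4 (log2 -3.39, -3.50, -3.80 and -2.96) and Tnxb higher (2.35, 2.25, 2.84 and 3.70).

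Of 7 tested collagen receptors, 2, 1 and 1 were higher in KO in the first 3 media, and 4, 4, 2 and 3 were lower in the 4 media. Itga11, a receptor subunit for fibrillar collagens, was lower in all 4 (log2 -4.45, -4.53, -4.00 and -4.16). Of 4 tested collagen-cleaving proteinases, 2, 3, 1 and 2 were lower. Of 11 partners in basement membranes, 3, 3, 4 and 4 were higher and 6 lower in each medium. Nid1 and Agrn were lower (log2 -1.07, -0.65, -0.79 and -1.31, and -0.95, -0.66, -0.97 and -0.55) and Nid2, the paralog of Nid1, higher (0.34, 0.87, 0.88 and 1.58). Of 16 genes of TGF-beta signalling, a main inducer of fibrillar collagen, 7, 5, 6 and 6 were higher and 5, 6, 3 and 7 lower in KO. The shares of all genes that were higher and lower in KO, given above for each medium, are the background of these counts.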

How the data were processed

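RNA-seq gene counts of 24 libraries were used. The authors deposited raw counts per gene, with gene coordinates and length. HISAT2, DESeq2 and the build Rnor_6.0 are named per the submitters' processing notes; no counting program, strand setting or tool version is stated there or in the labels. Reads of overlapping or near-identical genes may therefore be split. The table has 5 emptied lines, whose genes are not used here.

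The collagen genes, gene lists and tests were chosen with earlier results of these data known. Groups were taken from the labels. In edgeR 4.0.16 (R 4.3.3), genes were kept by filterByExpr (minimum count 10, minimum total 15), counts were scaled by TMM, and 8 group means were fitted to all 24 libraries with robust quasi-likelihood dispersion (16 residual degrees of freedom). The 12 comparisons of 2 groups and 6 interactions were adjusted over 14770 genes by Benjamini-Hochberg, with a threshold of 0.05. CPM used raw library totals of 14344010 to 23028807 counts, and TPM the deposited gene length; intervals and the limit at 3 counts cover counting error only. The fit was also run on simulated counts in which a small set of genes was changed in a single group. That simulation does not cover changes as broad as those between the genotypes here, or libraries that deviate together.

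All tested members were named. Per-library values were given for the members with the highest level per length in each class (4 fibrillar, 2 basement membrane and 4 other), for up to 3 higher and 3 lower in all 4 comparisons of a kind, and for the extremes of each interaction. Library values of Col7a1 and Col4a2 were added after they were seen. Of each other list, up to 4 members past the threshold most often could be named; P4ha2 was named after its values were seen.

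Alternatives were DESeq2 1.42.0, its size factors in edgeR, no filter, a replicate block, loci without a name left out, only the groups compared, the median change of up to 50 neighbouring genes entered as an offset in edgeR, other class boundaries, and each library left out. Whether replicate numbers pair libraries was checked by correlating same-numbered libraries' deviations from their group means; every pair exceeded 0.1 in 1 of 12 comparisons, fructose against glucose in WT normoxia (0.130, 0.120 and 0.218).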

Additional observations from a re-analysis of the deposited data

Results flagged for a closer look

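In 18 cases, over 10 genes, an effect differed between groups in an edgeR interaction test at an adjusted p under 0.05. Genotype by sugar passed for 4 of the 26 tested genes in normoxia and 10 in hypoxia, where 19.1% and 25.6% of all genes passed. Genotype by oxygen with fructose passed for 1 and sugar by oxygen in WT for 3, against 2.11% and 3.27% of all genes. The cause of these differences was not tested. The fructose effect in normoxia, KO minus WT on the log2 scale, differed for Col5a1 (0.82), Col1a1 (0.60), Col4a5 (-0.32) and Col14a1 (-0.91). In hypoxia it differed for Col6a2 (2.49), Col3a1 (2.05), Col1a1 (0.69), Col5a3 (0.61), Col5a1 (0.58), Col17a1 (0.56), Col18a1 (0.46), Col4a5 (-0.42), Col12a1 (-0.64) and Col14a1 (-1.18). The hypoxia effect with fructose, KO minus WT, differed for Col17a1 (0.85). In WT, the fructose effect in hypoxia minus that in normoxia differed for Col12a1 (1.18), Col18a1 (-0.53) and Col17a1 (-1.02).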

How the results depend on the processing

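No direction of a called gene reversed under any alternative run, and the counts of KO against WT stayed within 1.5 times of those reported. Fructose against glucose gave 5, 4 and 5 lower genes in KO normoxia with DESeq2, the replicate block and only the groups compared (2 reported), and 8 and 8 in KO hypoxia with DESeq2 and the replicate block (5 reported). Hypoxia against normoxia gave 4, 5, 2 and 4 higher genes in KO fructose with DESeq2, the replicate block, unnamed loci left out and only the groups compared (1 reported). It gave 2 lower genes in KO glucose and 2 in WT glucose with the replicate block (1 reported in each), 0 lower in WT glucose with only the groups compared, and 2 higher in WT fructose with only the groups compared (4 reported). The replicate block gave 7 genes for genotype by sugar in normoxia (4 reported), 3 for genotype by oxygen with fructose (DESeq2 gave 2, 1 reported) and 5 for sugar by oxygen in WT (3 reported). The cause of these shifts was not tested. The share of all genes called under each alternative or left-out library is not given here. The counts here and below therefore do not show whether a shift is particular to collagen genes. Outside fructose against glucose in WT normoxia, no comparison had every same-numbered pair over the limit of 0.1. Over all pairs of groups the median correlation was 0.0700 for the same number and -0.0432 for different numbers, and the highest for the same number was 0.285. This limit cannot exclude that replicate numbers pair the libraries in other comparisons.

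Without any 1 library, the higher and lower genes in KO against WT numbered 5 to 7 and 13 to 15 in normoxic glucose, 7 to 8 and 10 to 13 in normoxic fructose, 5 to 7 and 12 to 15 in hypoxic glucose, and 7 to 8 and 9 to 13 in hypoxic fructose. With fructose against glucose, 1 to 3 and 2 to 6 genes were lower in KO normoxia and hypoxia, and in WT 2 to 3 were higher and 10 to 13 lower in normoxia and 1 to 3 higher and 10 to 12 lower in hypoxia. With hypoxia against normoxia, 1 to 3 were higher and 0 to 1 lower in KO glucose, 1 to 2 higher and 1 to 2 lower in KO fructose, 0 to 1 lower in WT glucose, and 1 to 4 higher and 3 to 6 lower in WT fructose. Genotype by sugar gave 3 to 6 genes in normoxia and 9 to 10 in hypoxia, genotype by oxygen with fructose 0 to 1, and sugar by oxygen in WT 2 to 3. The call held without any 1 library for 65 of 81 calls in KO against WT, 25 of 36 for sugar, 7 of 16 for oxygen and 13 of 18 interactions.

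Over single genes and alternatives other than left-out libraries, 33 values lost and 63 gained a call, with 28 of the gains under the replicate block. Subtracting the change of neighbouring genes ended 13 calls and gave 4, with Col4a5 at -0.29 and -0.27 in normoxic and hypoxic fructose, Col5a3 at -0.26 in hypoxic glucose and Col16a1 at -0.55 in hypoxic fructose (log2, KO against WT). With types VII, XV and XVIII counted as basement membrane, that class summed to 319 TPM in KO and 449 TPM in WT in normoxic glucose and 289 TPM in KO and 299.6 TPM in WT in hypoxic fructose. It summed to 292 TPM in KO and 324 TPM in WT in normoxic fructose and 340 TPM in KO and 422 TPM in WT in hypoxic glucose. The genotypes then overlapped in both fructose media and in neither glucose medium. Chain ratios with transcript lengths were not run, since no transcript annotation was used here. Calls under 1 CPM rest on few counts per library.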
